A study of Homo sapiens with 2 samples.

Results

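Tetraspanins are a family of small membrane proteins. Their transcripts were examined for contact with the RNA-binding protein RBMS3, FLAG-tagged and stably expressed from a lentiviral vector, in MDA-MB-231 cells. These cells are a widely used triple-negative line from human breast cancer. The family was taken as the protein-coding genes of GENCODE release 44 whose name is TSPAN followed by a number, together with CD9, CD37, CD53, CD63, CD81, CD82, CD151, PRPH2, ROM1, UPK1A and UPK1B, which gives 33 genes. At least 1 RBMS3-binding site on the same strand was found in 12 of the 33 (36.4%, 95% Wilson interval 22.2 to 53.4). Of all 20046 protein-coding genes, 37.6% had a site, so the share of tetraspanin genes lay near the background. The 12 genes held 64 of the 27706 sites in the list, and 63 of the 64 lay in a 3′ untranslated region (3′UTR), which is 98.4% (interval 91.7 to 99.7) against 84.8% of the sites of all protein-coding genes. Neighbouring sites share tags and are not independent, as the interval assumes. With 1 site per cluster of sites within 50 nt on a strand, the share was 95.2% of 21, and the difference from all genes was not tested. CD81, CD82, CD151, TSPAN3 and CD9 held the strongest sites, with 591 to 1748 deletions each, close to annotated transcript ends.

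Tetraspanins cross the membrane several times, with a small and a large extracellular loop, and gather partner proteins such as integrins, immunoglobulin-like proteins and proteases into microdomains of the membrane. They are known for roles in cell adhesion and migration, in the sorting of cargo into exosomes and in the traffic of the sheddase ADAM10. In carcinoma cells CD151 and CD9 accompany laminin-binding integrins, and CD82 was described as a suppressor of metastasis. RBMS3 is an RNA-binding protein with RNA recognition motifs that binds AU-rich elements in the 3′UTRs of messenger RNAs. Most 3′UTRs end shortly after a poly(A) signal, AAUAAA or a variant of it, which directs cleavage and polyadenylation of the transcript.

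There was 1 group of 2 biological replicates: MDA-MB-231 cells that stably expressed FLAG-tagged RBMS3 from a lentiviral vector, in addition to their own RBMS3, were crosslinked with ultraviolet light, and RNA bound to the tagged protein was recovered through the tag and sequenced (CLIP-seq). The labels of the second replicate are at odds, since its title says MDA-MB-231 but a different line number stands under source and cell line, and the title was followed. The values came from a single list in which both replicates were pooled. It gives, for each site, how many unique sequenced fragments (tags) cover it and how many tags lack 1 base there. Such a deletion can be left where reverse transcription met a crosslinked residue, but the origin of each listed deletion was not tested. No values per replicate, no control library and no RNA levels were analysed here, so a site cannot be compared between replicates, and a transcript that is scarce cannot be told apart from one that is little bound. Intervals cover counting error only.

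The sites fell into clusters (sites within 50 nt on a strand), and 20 clusters lay in the 3′UTRs of 11 tetraspanin genes. The sequence around the strongest site of the main cluster is shown for each of the 5 genes with the most deletions at a site, and then for 6 further genes, because these sequences show how close the deletions lay to a poly(A) signal. All were read from hg38 on the transcript strand, 5′ to 3′, as 30 bases of DNA, with the position at which the deletion is listed. Capitals mark a poly(A) signal, which is the variant AATATA in the TSPAN14 sequence and AATAAA or ATTAAA in the others.
CD81, chr11:2397358-2397387, plus strand, deletion at base 11: gactccgtcatttAATAAAgaaggaacatc
CD82, chr11:44620330-44620359, plus strand, deletion at base 21: tctaagactATTAAAgaggatttataacag
CD151, chr11:838799-838828, plus strand, deletion at base 13: atacaggtgctcAATAAAcacttgtagagc
TSPAN3, chr15:77046034-77046063, minus strand, deletion at base 14: aaaatctaattcAATAAActctgtatcagc
CD9, chr12:6238228-6238257, plus strand, deletion at base 15: aatttgatacatAATAAAaaattatgacaa
CD63, chr12:55725475-55725504, minus strand, deletion at base 24: tttcaATTAAAcggattattttttcagacc
TSPAN14, chr10:80519597-80519626, plus strand, deletion at base 9: ccaaactcttttatggAATATAtctttata
TSPAN6, chrX:100629027-100629056, minus strand, deletion at base 22: cttatacAATAAAtactgctttcctctaaa
TSPAN5, chr4:98470366-98470395, minus strand, deletion at base 21: ctgtcattAATAAActtggttctaccttac
TSPAN9, chr12:3286517-3286546, plus strand, deletion at base 10: tttagcatgtttttaAATAAAaacggataa
TSPAN8, chr12:71125104-71125133, minus strand, deletion at base 9: tgtatttttactcaaAATAAAagtaactgt

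Sites are given here by branch of the family, beside a background of 37.6% of protein-coding genes with a site. The branches hold few genes each and no RNA levels were analysed, so differences between branches were not tested. Each of the 5 widely expressed CD-named members (CD9, CD63, CD81, CD82 and CD151) had 3′UTR sites, 28 in all, and they carried 8015 of the 11943 deletions counted at tetraspanin sites (67.1%). Of the 6 TspanC8 members, which escort ADAM10 through the secretory pathway, TSPAN5 and TSPAN14 had sites, 8 in all with 638 deletions. TSPAN3, TSPAN6, TSPAN8, TSPAN9 and TSPAN12 were the members with sites among the 15 other TSPAN genes, with 28 sites and 3290 deletions. No site was listed for the 3 members known from leukocytes (CD37, CD53 and TSPAN32), the 2 uroplakins of the bladder lining (UPK1A and UPK1B) or the 2 photoreceptor members (PRPH2 and ROM1). The other members without a site were TSPAN1, TSPAN2, TSPAN4, TSPAN7, TSPAN10, TSPAN11, TSPAN13, TSPAN15, TSPAN16, TSPAN17, TSPAN18, TSPAN19, TSPAN31 and TSPAN33, which brings their number to 21.

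The 3′UTRs of the 12 members with a site were longer in the median than those of the 21 without one (2259 against 1179 nt, summed over the merged 3′UTRs of all transcripts), but the ranges overlapped widely, from 252 to 15151 nt against 390 to 5836 nt. A 3′UTR site was found in 11 of the 33 members (33.3%, interval 19.75 to 50.39), against a background of 31.8% of all protein-coding genes. The members that had sites held a median of 4.5, against 2 over the 7542 protein-coding genes with a site. TSPAN3 with 17 sites and CD9 with 12 held 29 of the 64 sites between them, and 109 and 309 of those 7542 genes had at least as many. No tetraspanin site lay in a second annotated gene of the same strand.

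**Figure D1:**
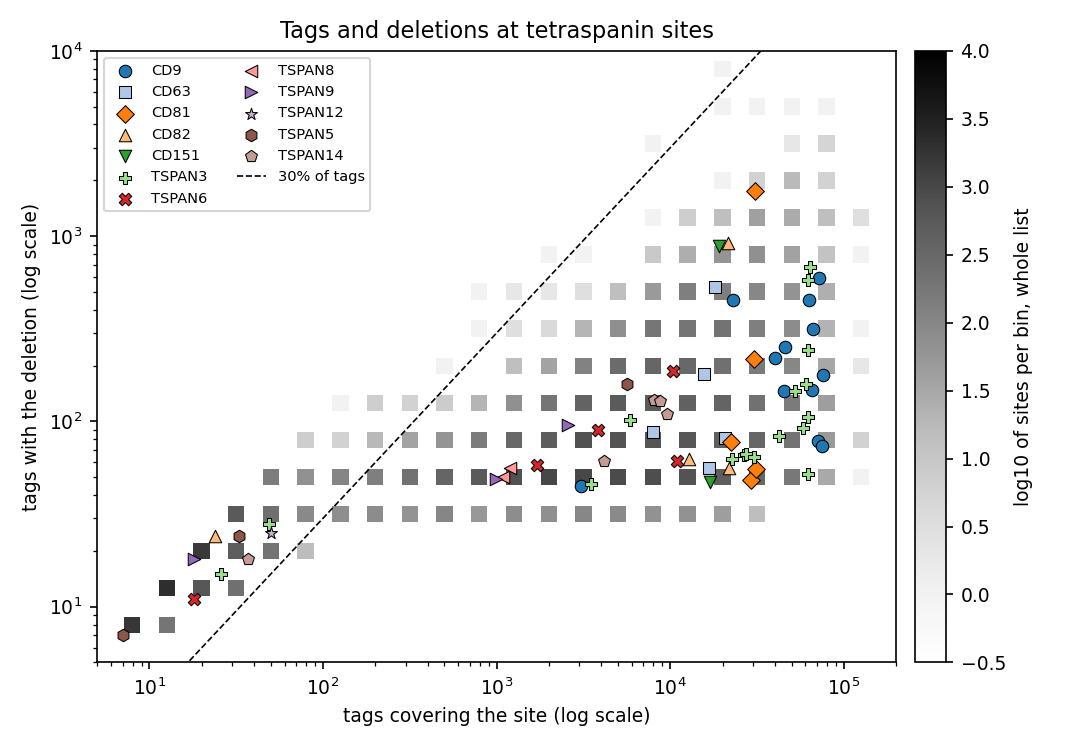
Tags covering each of the 64 tetraspanin sites (x axis, log scale) against tags with the deletion (y axis, log scale), over a grey map of the number of sites of the whole list per bin (log10). The 55 sites to the right of the dashed line, where under 30% of tags carry the deletion, reach 75627 tags, and 9 sites to its left have 50 tags or fewer.

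Divided at 30% of tags with the deletion, the tetraspanin sites formed a pair of classes that share no range of depth, as the plot of tags against deletions shows. In 55 of the 64 sites (85.9%, interval 75.4 to 92.4, against 75.55% of all sites in protein-coding genes) under 30% of the tags carried the deletion. Among 3′UTR sites alone the shares were alike, at 87.3% for tetraspanins and 87.1% for all genes. These 55 sites had 985 to 75627 tags and 45 to 1748 deletions, with a median of 96 deletions, and the deletion was in a median of 0.56% of the tags, against 1.61% over all sites of that kind. Their median number of tags was 22827, against 6180. Both medians rested largely on CD9 and TSPAN3, since the 27 such sites of those genes had medians of 57984 tags and 0.28%, and without them the other 28 had medians of 11902.5 tags and 1.47%. In the other 9 sites 30% or more of the tags carried the deletion, but those sites had only 7 to 50 tags and 7 to 28 deletions. Among sites of the whole list with that percentage the median was 16 tags, so small numbers there were not particular to tetraspanins. In the whole list the classes overlapped in depth. Sites under 30% had 110 tags or more, and sites of 30% or more reached 23840 tags.

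CD81, a tetraspanin of many cell types that hepatitis C virus uses for entry, held the strongest tetraspanin site. The gene lies at chr11:2376177-2397802 on the plus strand, and the site in its 3′UTR, at position 2397368, had 1748 deletions in 30922 tags (5.65%, interval 5.40 to 5.92), which ranked 35 among the 27706 sites by deletions. The deletion is listed at the first of the 3 T just before AATAAA, although any of them may have been lost, and that position lies 14 nt before the nearest annotated transcript end. The other 4 sites of the cluster had between 48 and 218 deletions in 22500 to 31108 tags. This 1 listed site, which stands for the whole run, carried 81.45% of the deletions in CD81, while its neighbours were covered by 22500 tags or more.

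CD82 (chr11:44564427-44620358, plus strand) and CD151 (chr11:832887-839831, plus strand), a main partner of laminin-binding integrins, likewise had most of their deletions at 1 listed site, which in both lies in a run of equal bases. In CD82 the site at position 44620350 had 913 deletions in 21487 tags (4.25%, interval 3.99 to 4.53), 8 nt before the end of the transcript and 11 nt after the first base of ATTAAA. Its neighbours at 44620329 and 44620347 had 63 deletions in 12816 tags and 56 in 21890. In CD151 the site at position 838811 had 880 deletions in 19041 tags (4.62%, interval 4.33 to 4.93), listed at the first of the 2 A that open AATAAA and 19 nt before an annotated end. The only other CD151 site, 9 bases further on, had 47 deletions in 16878 tags. The strongest site carried 86.5% of the deletions of CD82 and 94.9% of those of CD151.

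CD9 and TSPAN3 showed the opposite shape, with the most tags and with deletions scattered over many bases. CD9 (chr12:6199715-6238271, plus strand), which acts in the fusion of sperm and egg and associates with integrins, had all of its 12 sites within 96 nt of its 3′UTR. The strongest, at position 6238242 inside AATAAA, had 591 deletions in 72058 tags (0.82%, interval 0.76 to 0.89) and carried only 20.03% of the CD9 deletions. The sites at 6238198 and 6238230 came close to it with 450 and 454 deletions, but the first of them had 23081 tags and so a higher percentage, 1.95%. The number of tags rose along the cluster from 3053 at its first site to 75627 at position 6238239, 1 base before the signal, and was 45243 at its last site.

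TSPAN3 (chr15:77041404-77083984, minus strand) had 15 of its 17 sites within 91 nt, and the tags rose in the same way, from 3490 at the first site to 64134 at position 77046050, the second base of AATAAA, before 57984 at the last. That strongest site had 677 deletions (1.056%, interval 0.98 to 1.14) and its neighbour at 77046052 had 581 in 62401 tags, while the other 13 sites of the cluster had 46 to 243. The cluster lay 20 nt before an annotated end of protein-coding TSPAN3 transcripts but 4646 nt before the end of the representative transcript (MANE Select where there is one, otherwise the Ensembl canonical transcript), so its tags sat at the end of a shorter annotated 3′UTR. Together CD9 and TSPAN3 carried 46.4% of the deletions counted in the family.

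**Figure D2:**
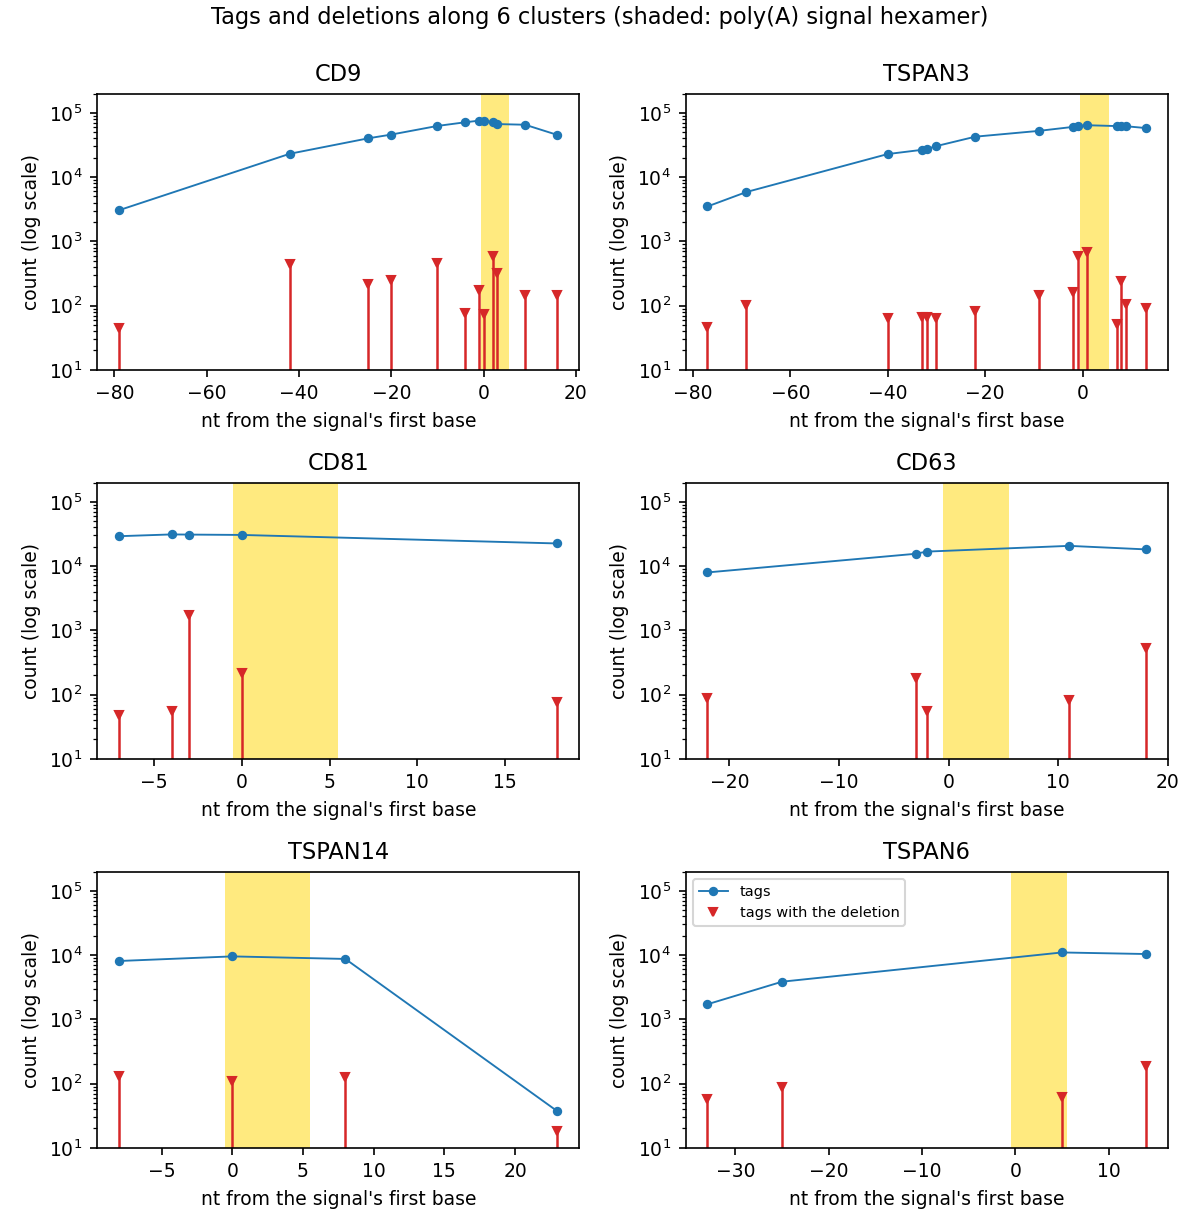
Tags covering each site (blue) and tags with the deletion (red), both on a log scale, along 6 clusters by distance in nt from the first base of the poly(A) signal, which is shaded. In CD9 and TSPAN3 the tags rise toward the signal to 75627 and 64134, in CD81 and CD63 a single listed site stands out in deletions, and in TSPAN14 the tags are 8710 before and 37 after an annotated end.

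CD63, a protein of late endosomes and exosomes (chr12:55725323-55729707, minus strand), had 5 sites with 7967 to 20647 tags. The strongest, listed at position 55725481 for a run of 6 T, had 532 deletions in 18195 tags (2.92%, interval 2.69 to 3.18) and lay 11 nt before an annotated end and 158 nt before that of the representative transcript. The next, at 55725502, had 179 deletions in 15545 tags, and the other 3 had 56 to 88.

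TSPAN14 (chr10:80454265-80533124, plus strand) had a cluster at each of 2 annotated ends. In the upstream cluster the sites at 80519605, 80519613 and 80519621 had 130, 110 and 128 deletions in 8093, 9544 and 8710 tags, and the last of them lay 7 nt before an annotated end. The next site, at 80519636 beyond that end, had 18 deletions in 37 tags. The downstream cluster, of 1 site at position 80522624, had 61 deletions in 4151 tags (1.47%) and lay 7 nt before the end of the representative transcript. TSPAN14 was thus covered at both ends, with more tags in the upstream cluster, whose strongest site is 3026 nt from the representative end.

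TSPAN5, the other TspanC8 member with sites (chr4:98470367-98658611, minus strand), had its strongest site 8 nt before the end of its representative transcript, at position 98470375, with 160 deletions in 5599 tags (2.86%, interval 2.45 to 3.33). Its other sites, at 98470628 and 98471234, had 24 deletions in 33 tags and 7 deletions in 7 tags.

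TSPAN6 (chrX:100627108-100639991, minus strand) was the member whose main cluster lay far from any annotated end. Its 4 sites had 58 to 186 deletions in 1717 to 10989 tags, and the strongest, at position 100629035, with 186 deletions in 10392 tags (1.79%, interval 1.55 to 2.06), lay 1926 nt before the nearest annotated end. An AATAAA nevertheless began 14 nt before the deletion. The remaining TSPAN6 site, at 100629793, had 11 deletions in 18 tags, and a site with 11 deletions in 18 tags lay 909 nt past the end of the gene and was not counted.

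The remaining members had fewer tags. TSPAN9, found in platelet membranes (chr12:3077355-3286564, plus strand), had 96 deletions in 2561 tags at position 3286526 (3.75%, interval 3.08 to 4.56), 33 nt before the transcript end and just before AATAAA. A second TSPAN9 site, at 3283694, had a similar percentage, 4.975% (49 of 985 tags, interval 3.78 to 6.52), but lay 2865 nt from the end with neither AATAAA nor ATTAAA within 25 nt. The sequence around it, at chr12:3283680-3283709 on the plus strand with the deletion at base 15, is ggttagatttctgatttgtaactttttact. The remaining one, at 3285757, had the deletion in all of its 18 tags. TSPAN8, linked to the progression of gastrointestinal tumours (chr12:71125085-71441898, minus strand), had 56 deletions in 1197 tags at position 71125125 (4.68%, interval 3.62 to 6.03), 24 nt before the nearest end, and 50 in 1093 tags at 71125136. TSPAN12, which acts in Norrin signalling in retinal vessels (chr7:120787320-120858402, minus strand), had only an intronic site, at 120853533, with 25 deletions in 50 tags (50%, interval 36.6 to 63.4).

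**Figure D3:**
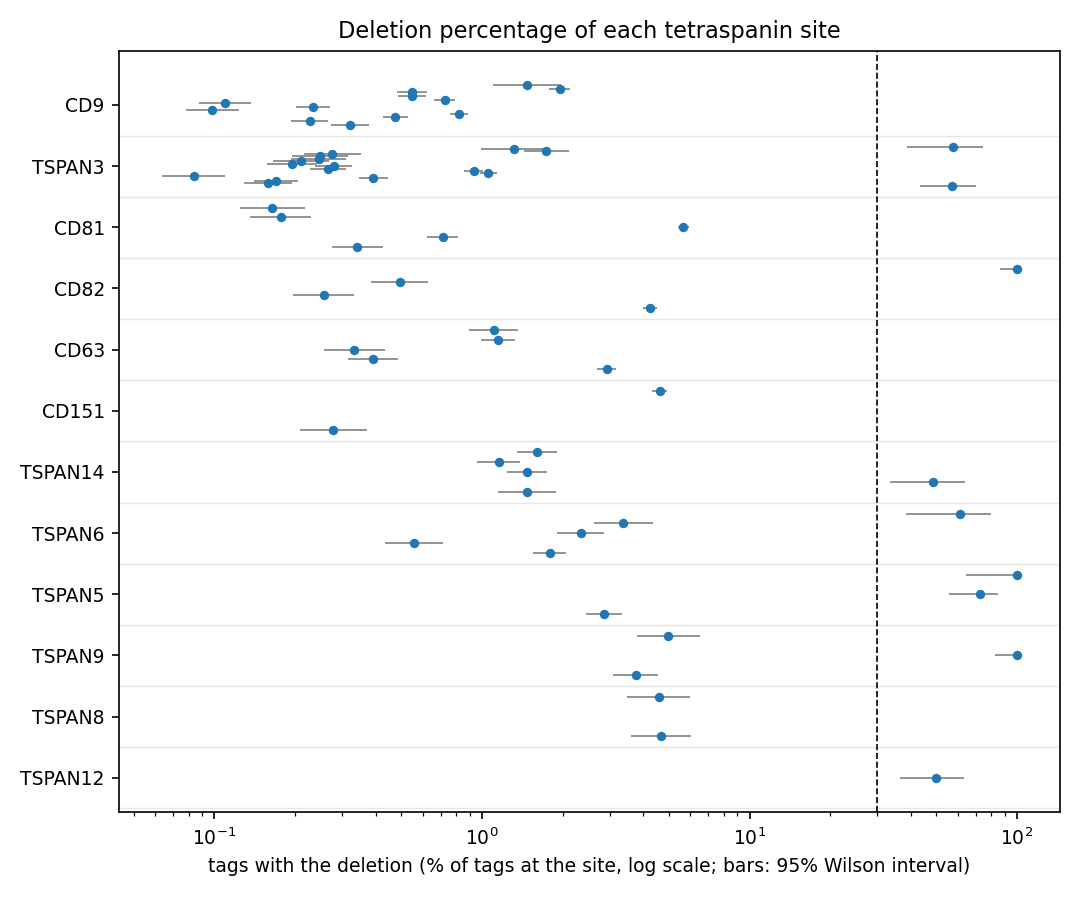
Percentage of tags with the deletion at each of the 64 tetraspanin sites (x axis, log scale; bars are 95% Wilson intervals), by gene and, within a gene, in transcript order from top to bottom. In CD81, CD82 and CD151 a single site between 4.25% and 5.65% stands apart from neighbours at 0.71% or less, and the 9 sites beyond the dashed line at 30% come from 7 genes.

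Nearness to a transcript end was common to most tetraspanin sites. The deletion lay a median of 15 nt before the nearest annotated 3′ end in the same gene, against 34 nt for the 3′UTR sites of all genes, and 51 of 63 tetraspanin 3′UTR sites were within 100 nt of one (81.0%, interval 69.59 to 88.75, against 69.3%). The choice of end mattered, since against the end of the representative transcript only 26 of 63 were that close (41.3%, interval 29.96 to 53.58, against 48.35% for all genes). Without CD9 and TSPAN3 the share near any annotated end was 70.6% of 34 sites, close to that of all genes. The sites of a gene share tags, so clusters were counted as well. Of the 13 clusters whose strongest site had the deletion in under 30% of tags, 11 lay within 100 nt of an annotated end, and the exceptions were the TSPAN6 cluster and the internal TSPAN9 site. Clusters of all genes were not counted. Per site of that class, 90.9% of 55 tetraspanin 3′UTR sites were that close, against 76.2% over all genes, and 27 of the 55 were in CD9 and TSPAN3. The end of the representative transcript was within 100 nt of 8 of the 13. Of the 7 clusters with a higher percentage, which had 7 to 49 tags at their strongest site, 1 was within 100 nt of an annotated end. That was a CD82 site, at position 44619381, with the deletion in all of its 24 tags (interval 86.2 to 100%). The end belongs to a transcript not annotated as protein-coding, and the nearest end of a protein-coding transcript lay 328 nt away.

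**Figure D4:**
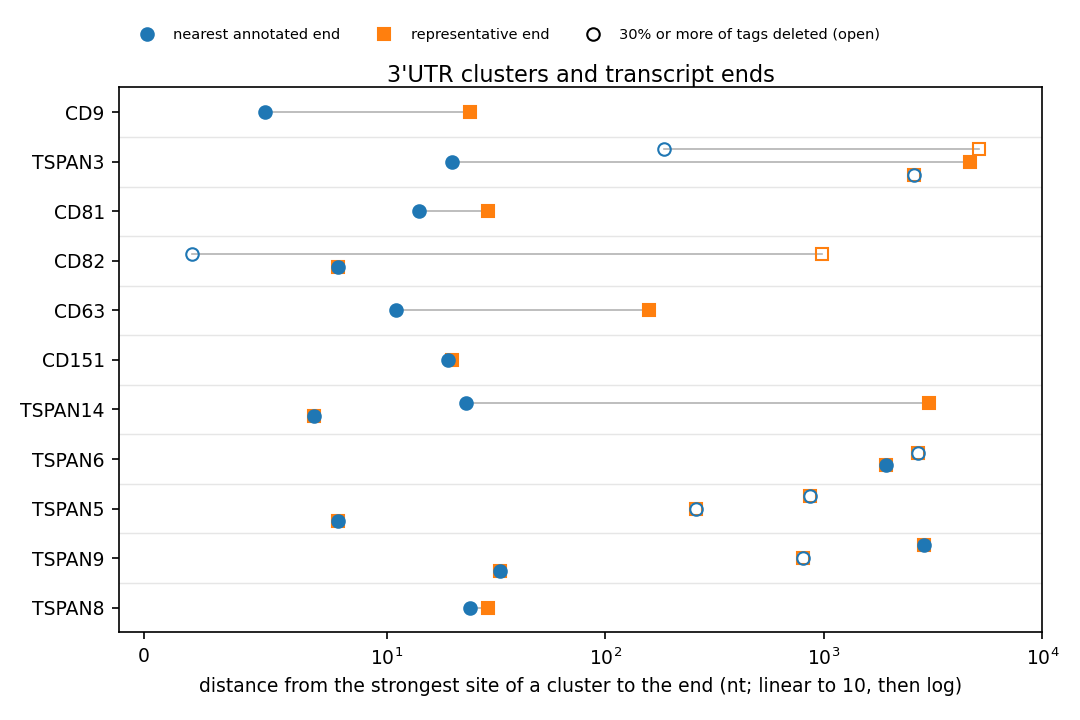
Distance in nt (linear to 10, then log) from the strongest site of each 3′UTR cluster to the nearest annotated transcript end (blue circles) and to the end of the representative transcript (orange squares), by gene. Open symbols are clusters with the deletion in 30% or more of tags, most of which lie far from an end, and the filled symbols show the TSPAN3 and TSPAN14 clusters near an annotated end but 4646 and 3026 nt from the representative one.

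Poly(A) signals lay near most of the deep clusters. AATAAA or ATTAAA was present within 25 nt of the strongest site in 11 of the 13 deep clusters, and the deletion lay between 7 nt before and 22 nt after the first base of the signal. The exceptions were the internal TSPAN9 site and the upstream TSPAN14 cluster, which has AATATA. Any of 12 hexamers, AATATA among them, was present in 77.8% of tetraspanin 3′UTR windows and in 79.9% of those of all genes. Clusters of all genes were not counted, so these cluster counts have no background beside them. Over all sites, 31 of 63 windows of 51 nt held AATAAA (49.2%, interval 37.3 to 61.2) and 8 more held ATTAAA without it (12.7%), against 52.65% and 12.76% of all 3′UTR sites, so these shares were close to those of the list. The listed position of the deletion fell inside the hexamer itself in 7 of the 39 windows with either signal (17.95%, interval 8.98 to 32.7, against 15.8%).

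The AU-rich element of the study, here called the AUA motif, was searched on the transcript strand as A, G or T, then A or T, then ATA, then A or T, then A. It was present in 23 of 63 tetraspanin windows (36.5%, interval 25.72 to 48.85), against 51.7% of the windows of all 3′UTR sites, and in 41.2% of the 34 windows without CD9 and TSPAN3. These 2 genes differed, since none of the 17 TSPAN3 windows held the motif but most of the 12 CD9 windows did. The lower share thus rested largely on TSPAN3. The motif can overlap the poly(A) signal, as in AAATAAA. Without matches that contain AATAAA, it was left in 4 of 63 windows (6.3%, interval 2.5 to 15.2, against 15.5%). All 4 windows belong to the upstream TSPAN14 cluster and share 1 match, GAATATA. That match contains the AATATA marked above as a poly(A) signal. Both shares were below those of the list, but neither difference was tested, and windows of the same cluster overlap.

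The deleted base was T at 39 of the 63 3′UTR sites (61.9%), A at 16 (25.4%), G at 5 and C at 3, near the shares in the list (65.5% T and 21.5% A). Among the 13 deep clusters the strongest deletion was at a T in 10, and 9 of those were in a run of T, with no count over the clusters of all genes. A deletion in a run of equal bases cannot be placed within it: each of the 46 tetraspanin 3′UTR sites in such a run was listed at the lowest coordinate, which is the first base of the run on the plus strand and the last on the minus strand. Of the 39 deleted T, 30 were in a run (76.9%, interval 61.66 to 87.35), against 91.3% over all genes. Most of the deleted T outside a run lay in the CD9 and TSPAN3 clusters, and the exceptions were CD82 44619381 and TSPAN5 98470628. The lower share thus rested largely on CD9 and TSPAN3, and the difference was not tested.

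One member without a site was a matter of strand. TSPAN31 lies tail to tail with CDK4, the cyclin-dependent kinase of the G1 phase, and 5 sites with 1548 deletions in all fell on the CDK4 strand, inside the 3′UTR of CDK4. The strongest, at position 57748269 of chromosome 12, had 947 deletions in 17241 tags (5.49%). Without strand they would have fallen in the 3′UTR of TSPAN31 too, but the listed strand assigns all 5 to CDK4.

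Of 21 genes that encode known partners of tetraspanins, 19 had a 3′UTR site, against the background of 31.8% of protein-coding genes; the list was chosen with results of these data known. All 4 genes of laminin-binding integrins (ITGA3, ITGA6, ITGB1 and ITGB4), the 3 proteases (ADAM10, ADAM17 and MMP14), the 3 exosome genes (SDCBP, PDCD6IP and TSG101), the 3 genes of growth factor signalling (HBEGF, EGFR and MET), PI4K2A, ZDHHC2, and CD44 with the actin linkers EZR, MSN and RDX had one. The immunoglobulin partners of CD9 and CD81, IGSF8 and PTGFRN, had none. ZDHHC2 rested on 1 site of few tags and high percentage, with 13 deletions in 25 tags. CD44, the hyaluronan receptor, had 30 sites, the strongest with 1449 deletions in 51415 tags (2.82%). ITGA3 followed with 860 deletions in 35532 tags, 20 nt before an annotated end. SDCBP, which encodes the exosome adaptor syntenin, had 486 in 22941 tags, and ITGA6 had 413 in 13292. HBEGF, a growth factor whose membrane-bound form associates with CD9, had 366 in 9816 tags, and its receptor EGFR had 345 in 26822. Of these 6 genes, CD44 had a strongest site within the range of the CD81 and CD82 sites, between 913 and 1748 deletions. ADAM10, the protease that TSPAN5 and TSPAN14 escort, had 171 deletions in 3955 tags at its strongest site, which lay 6624 nt from the nearest downstream end.

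The cell line was checked against lists of marker genes. All 6 genes chosen as markers of mesenchymal-like breast lines had a 3′UTR site (VIM, CD44, CAV1, ANXA1, AXL and SPARC), as did 3 of 6 luminal markers (GATA3, EPCAM and KRT19, but not ESR1, PGR or CDH1), against the background of 31.8% of protein-coding genes. SPARC and EPCAM each rested on 1 site of few tags and high percentage, with 51 deletions in 52 tags and 20 in 20. A site is not a level, so the part of transcript abundance in which tetraspanin genes had sites was not tested.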

How the data were processed

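RBMS3 was mapped by CLIP-seq in 2 replicates of MDA-MB-231 cells. After crosslinking and immunoprecipitation the authors tailed the bound RNA with poly(A) and primed it with oligo(dT) that carries molecular identifiers; a natural poly(A) tail could be primed in the same way, and whether this bears on sites near transcript ends was not tested. The authors used the CLIP Tool Kit to align reads to hg38, collapse them to unique tags, pool both replicates and call deletion sites, filtering by false discovery rate and by a fold whose definition is not given in the sources used here. The deposited values are counts per site, of tags and of tags with the deletion, and are not normalized. The deposited list gives no depth per library, so depth is given per site, and a site can rest on 1 replicate.

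The deleted base was taken as the centre of each 21-nt interval, coordinates count from 1, and sites were placed by strand on all transcripts of GENCODE release 44, with 3′UTR taken before 5′UTR, then any other exon, then intron. Sites within 50 nt formed clusters, and windows had 25 nt on each side. Shares and percentages have 95% Wilson intervals. No test between groups was made, as there is 1 group and the list is pooled. Every member with a site is named, and the 5 with the most deletions at a site are described in full. Up to 6 partner genes are given with values by deletions at their strongest site. ADAM10 was added outside that rule, as the protease that TspanC8 members escort, and ZDHHC2 because its only site has few tags. The members, gene lists and tests were chosen with earlier results of these data known. A further marker list is not reported here. The assignment recovered all 500 of 500 simulated sites, each placed in an annotated 3′UTR close to a transcript end. Sites in other places were not simulated. Alternatives were other minimums of deletions or percentage, other annotation and strand rules, other windows, motif lists and cluster distances. The software was samtools 1.23.1 and Python 3.11.15 with pysam 0.24.0, numpy 2.4.6, scipy 1.17.1 and matplotlib 3.10.9.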

Additional observations from a re-analysis of the deposited data

How the results depend on the processing

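Of 54 alternatives, 34 left the value within its interval or within 1.5 times a count, and 20 did not. Requiring deletions in at least 10% of tags left 7 genes and 9 sites, of which 88.9% were in 3′UTRs, and among its 8 3′UTR sites 12.5% were within 100 nt of an end, 12.5% had AATAAA or ATTAAA, 12.5% had the AUA motif and 87.5% had a deleted T. With at least 50 deletions per site, 100% of sites were in 3′UTRs and 92% of those were near an end. With deletions in under 30% of tags these shares were 100% and 90.9%. Counting 1 site per cluster gave 60% near an end and 80% deleted T, and the representative end gave 41.3% near an end. Windows of 10 nt on each side gave 33.3% with a signal and 17.5% with the AUA motif, and windows of 50 nt gave 79.4% with a signal. Of the alternatives added after the data were seen, 12 signals (AATAAA, or that hexamer with any other base at position 1, 2 or 5 or with G at position 3 or 4) gave 77.8%, against 79.9% of all 3′UTR sites. Also added then, AUA matches without AATAAA gave 6.3%, against 15.5%. Clusters within 10 nt numbered 31. The cause of these changes was not tested. Leaving out a replicate was not possible with a pooled list. No paired analysis was possible because the list pools both replicates of the only group. At sites with 7 to 50 tags the depth allows only wide intervals.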
